A study of Oryza sativa Indica Group with 17 samples.

Results

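G282 is a mutant line of the indica rice variety IR64 that was raised after gamma ray treatment. Its genomic DNA was compared with that of untreated IR64, the wild type check, over all 57194 probe sets of a rice gene array. DNA was taken from leaves of greenhouse plants at 45 days after sowing, and G282, like the other mutant lines, had been carried to the M4 or M5 generation by single seed descent. The series holds 17 arrays, 1 for each of 16 mutant lines and 1 for the wild type check, so that G282 is 1 of the 16 lines and neither it nor the check has a replicate. The other 15 lines, obtained from the same variety by gamma rays, fast neutrons or diepoxybutane (DEB), served only as a background here. Each value is the share, from 0 to 1, of the perfect match probes in a probe set that counted as low beside wild type in the authors' flagging. A high share therefore stands for weak hybridization of the DNA of that line. Probe sets and genes counted as called from a share of 0.5 upwards. All differences below are differences between single arrays, with no spread between replicates and no test.

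Gamma rays break DNA, and repair of the breaks can leave deletions that range from single bases to stretches with many neighbouring genes. When genomic DNA is hybridized to an expression array, a homozygous deletion removes the template of every probe inside it, so that neighbouring genes lose signal together. The position of called genes along a chromosome is therefore read beside the size of their shares.

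In G282, 990 probe sets were called, which was 1.73% of the array (95% interval 1.63 to 1.84%, exact binomial by Clopper and Pearson, for counting error alone). In the wild type check 11 were called, or 0.0192% (0.0096 to 0.0344%). The paper lists fewer called probe sets for G282 at the same proportion of probes, at each flagging cutoff it pairs with that proportion. Because its predictions for this line were many, it recommends a stricter cutoff there to lower the false positive rate. The reason for the difference in counts was not tested. Exactly 1 gene belonged to each of 22436 sets. After placing these in the gene order of the ASM3414082v1 assembly, with the median where a gene had several sets, 237 of 17903 measured nuclear genes (1.32%, interval 1.16 to 1.5%) were called in G282 and 1 gene (0.00559%) in the wild type check. The called genes of G282 fell into 2 classes. A run of 14 neighbouring genes lay on chromosome 7, and 223 called genes were scattered over all 12 chromosomes.

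For tests of predicted deletions by polymerase chain reaction the study listed primers for 4 loci of chromosome 7, without naming the line beside them. Their 8 sequences are shown because chromosome 7 carries the run of G282 and they are the only sequences of its genes used here. Whether each locus lies inside the run was not settled. The paper reports that polymerase chain reaction bore out the large deletion it predicted on this chromosome in this line. Whether that deletion and the run cover the same genes was not tested here. Each primer is written 5′ to 3′ in lower case with no base marked. The primer names end in F or R for the forward and the reverse primer. The pair EP1 belongs to LOC_Os07g02260, HP1 to LOC_Os07g02270, CHP1 to LOC_Os07g02640 and DBD1 to LOC_Os07g02800.
EP1-1F: aggaacggctggaggtaagtaa
EP1-1R: acacattgttggacgcgtga
HP1-1F: tctcgatagctacatccggaagttg
HP1-1R: acttaagatttcgtattgcctcacacat
CHP1-1F: gagcaccttgattgagcatgactg
CHP1-1R: gtgcaaagttcctgcgatctcttc
DBD1-1F: agaagaagggtggtgatcgtaagg
DBD1-1R: ggtacttctgcgcaatcagaatcg
The primers are 20 to 28 bases long, and from 35.7 to 50% of their bases are G or C. These loci carry the names of an older rice annotation that was not matched to the gene identifiers of the array, so no share is given to a single primer pair, and their coordinates were not analysed here.

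The run on chromosome 7 held places 58 to 71 among the 1373 genes measured on that chromosome. All 14 measured genes in it were called, with no uncalled gene between them. Their shares in G282 lay between 0.545 and 1 with a median of 0.909, against 0 to 0.182 with a median of 0.0909 in the wild type check. The G282 minus wild type check difference was 0.455 to 0.909, with a median of 0.818. The call chose these genes by their share in G282, so the distance between the arrays is a description. Between the outer genes of the run the assembly annotates 34 gene models, of which 31 are protein coding, 2 are long noncoding RNAs and 1 is a pseudogene. The other 20 models had no probe set paired with them alone, and nothing is known here of their signal.

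LOC4342247 had all of its probes flagged in G282, a share of 1, against 0.182 in the wild type check. LOC4342265 followed with 0.955 in G282 and 0.182 in the check. At 0.909 in G282, with 0 in the check, were LOC4342250, LOC4342259 and LOC4342266. LOC4342244, LOC4342264 and LOC4342267 had 0.909 in G282 and 0.0909 in the check. LOC4342251 had 0.909 in G282 and 0.182 in the check. These are the 9 genes of the run at 0.909 or more. The gene tables used here give no names or roles for them beyond the identifier.

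LOC9267609 had 0.864 in G282 and 0 in the wild type check. LOC4342248 had 0.818 in G282 and 0.0909 in the check. LOC4342269, the last gene of the run, had 0.818 in G282 and 0 in the check. With the 9 genes above, 12 of the 14 genes were thus at 0.818 or more. LOC4342249 had 0.727 in G282 and 0.0909 in the check.

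OsPP2C61 (LOC4342246), a member of the protein phosphatase 2C family, was the lowest gene of the run. Enzymes of this family remove phosphate groups from serine and threonine residues, and some of them hold back abscisic acid signalling in plants. Its share was 0.545 in G282 and 0.0909 in the wild type check, which is a difference of 0.455. It has 1 probe set and lies between LOC4342244 at 0.909 and LOC4342247 at 1. It was the only gene of the run that was no longer called when the array median or the share in the check was subtracted, leaving 13 genes in either case.

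The edges of the run were sharp. On its near side, LOC4342242 had 0 in G282 and 0.0909 in the wild type check, LOC4342241 had 0 on both arrays, and LOC4342240 had 0.182 in G282 and 0.0909 in the check. On its far side, LOC4342270 had 0.0909 in G282 and 0 in the check, LOC4342274 had 0.0909 on both arrays, and LOC4342277 had 0.273 in G282 and 0 in the check. From one measured gene to the next, the share in G282 thus changed from 0 to 0.909 at the first edge and from 0.818 to 0.0909 at the second. Where between these genes the low signal began and ended cannot be placed more closely than the spacing of measured genes.

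**Figure D1:**
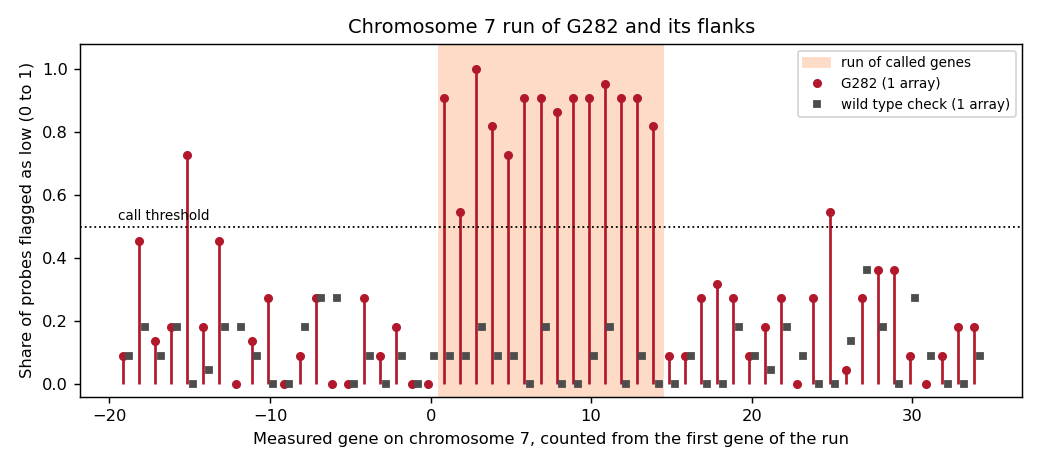
Share of probes flagged as low (vertical axis, 0 to 1) for the 14 genes of the chromosome 7 run (shaded) and 20 measured genes on each side, in gene order. Red points and stems show G282, grey squares the wild type check, 1 array each. All shaded genes lie above the dotted call threshold of 0.5 in G282 and at 0.182 or less in the check. The 3 nearest neighbours on each side lie at 0.273 or less in G282. Farther out, the scattered genes LOC4342219 before the run (0.727) and LOC4342290 after it (0.545) were also called.

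The run is measured by 18 probe sets, of which 17 were called in G282. Over the sets the share was 0.455 to 1 with a median of 0.909 in G282, against 0 to 0.273 with a median of 0.0909 in the wild type check. For 12 genes a single set carried the value. The other 2 genes give a view of how sets within a gene varied. The 4 sets of LOC9267609 had 1, 0.909, 0.818 and 0.455 in G282 and 0 each in the check, so that the 1 uncalled set of the run belonged to this gene. The pair of sets for LOC4342265 had 1 and 0.909 in G282, against 0.0909 and 0.273 in the check.

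On the arrays of the other 15 lines none of the run genes was called, although 1 of the sets of LOC4342265 reached 0.545 in one of them. Of the 210 values of these genes in those lines, 125 (59.5%) were 0, and the highest was 0.455, for LOC4342247 in G6603 and again in G6989. LOC4342250 had 0 in all 15 lines and in the wild type check, against 0.909 in G282. The median over the run was 0.273 in G6989, the line with the highest mean share of the series, and 0.0909 or less in each of the other lines. All lines were scaled to and flagged against wild type, so that they share that reference and the values are set side by side without a count of agreement.

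Besides the run, 223 called genes of G282 were scattered, which was 94.1% of the called genes and 1.25% of the genes measured. Their median share was 0.545 in G282 and 0.0909 in the wild type check. In the check these genes reached at most 0.364, and 76 of them had no flagged probe there. The G282 minus wild type check difference lay between 0.182 and 0.818 with a median of 0.455, so that all 223 had a higher share in G282, as the call itself favours. Since the call chose these genes by their share in G282, that comparison is a description. On the same array the median of the scattered genes was 0.364 below that of the run.

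Most scattered genes sat close to the threshold. Shares of 0.5 and 0.545 accounted for 12 and 144 of them, and 6 had 0.591. Higher values became rare, with 36 genes at 0.636, 3 at 0.682, 17 at 0.727, 4 at 0.818 and 1 at 0.909. Just outside the threshold, 414 genes had a share of 0.455 in G282, against 145 just inside it at 0.545, the run gene OsPP2C61 included. In a set of 11 probes these levels are 1 probe apart. The threshold therefore fell on a steep slope of the distribution for the scattered genes and not for the run.

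**Figure D2:**
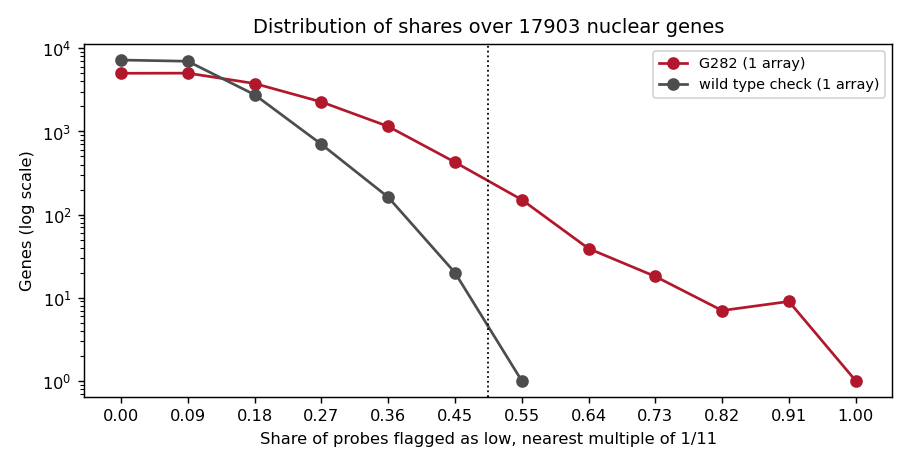
Number of nuclear genes (vertical axis, log scale) at each share of probes flagged as low (horizontal axis, nearest multiple of 1 probe in 11) in G282 (red) and the wild type check (grey), 1 array each; a level with no gene has no point. Counts in G282 fall from the threshold (dotted line) to 7 genes at 0.818 and then stand at 9 genes at 0.909, which are mostly genes of the chromosome 7 run, while the check has 1 gene above the threshold.

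Raising the threshold removed a larger part of the scattered genes than of the run genes, without fully separating the classes. At 0.6 or more, 13 run genes and 61 scattered genes were called in G282. At 0.7 the counts were 13 and 22, at 0.8 they were 12 and 5, and at 0.9 they were 9 and 1. These counts use the median over the sets of a gene. By probe set, 118 sets were at 0.8 or more in G282. Of these, 35 were paired with 1 gene and 83 with none, which could not be placed in either class. The wild type check had 0 called genes at each of these thresholds.

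Over all probe sets the mean share was 0.108 in G282 and 0.0745 in the wild type check, while the array median was 0.0909 for both. The share was higher in G282 for 36.9% of the sets, lower for 28.7% and equal for 34.4%. G282 ranked as number 2 of the 16 lines in mean share, after G6989 at 0.176. Over the nuclear genes the mean was 0.144 in G282 and 0.0815 in the check. The share was higher in G282 for 9169 genes (51.2%) and lower for 4250 (23.7%). By contrast, 120 genes were higher in G282 by 0.5 or more and 1 gene was lower by as much. This was LOC4338090 on chromosome 5, which had 0 in G282 and 0.545 in the wild type check and was the only nuclear gene called there.

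Over all probe sets the arrays had the same median and parted above it. The upper quartile of probe set shares was 0.182 in G282 and 0.0909 in the check. Over the nuclear genes the arrays also parted at the low end. The level nearest to 0 held 5018 genes in G282 and 7244 in the check. The 95th percentile of probe set shares was 0.364 in G282 and 0.273 in the check, and the 99th percentile was 0.545 in G282 and 0.364 in the check. The highest share was 1 in G282 and 0.556 in the check. Sets with no flagged probe made up 45.7% of the array in G282 and 44.5% in the check.

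Genes were also grouped by their share in the wild type check. Of 6498 genes at 0 in the check, 81 (1.25%) were called in G282, and of 7275 genes above 0 and up to 0.1 there 91 (1.25%) were. Of 3171 genes above 0.1 and up to 0.2 in the check 51 (1.61%) were called in G282, and of 959 genes above 0.2 there 14 (1.46%) were. The mean share in G282 over these 4 groups of genes lay between 0.137 and 0.157.

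Because its array median was 1 probe in 11, G282 was also called after this median was subtracted, which asks for a share of at least 0.591. Then 460 probe sets (0.804%, interval 0.733 to 0.881%) and 80 genes (0.447%, 0.354 to 0.556%) remained. Of the run, 13 of 14 genes stayed called, and of the scattered genes 67 of 223. The scattered genes made up 83.8% of the 80. When the share in the wild type check was subtracted gene by gene, 120 genes (0.67%, 0.556 to 0.801%) stayed called, of which 13 were in the run and 107 were scattered. The count of scattered genes thus moved by more than 2 times with the way of calling, and that of the run by 1 gene.

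Positions were examined in 708 windows of 50 measured genes. The fullest held 15 called genes of G282, in 2 windows that both covered the run and 1 scattered gene, LOC4342219 or LOC4342290. Elsewhere the highest count was 5, and 385 windows (54.4%) held 0. In the wild type check 706 windows held 0 and the highest count was 1. After subtraction of the array median the highest count in G282 was 14 over the run and 2 elsewhere.

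**Figure D3:**
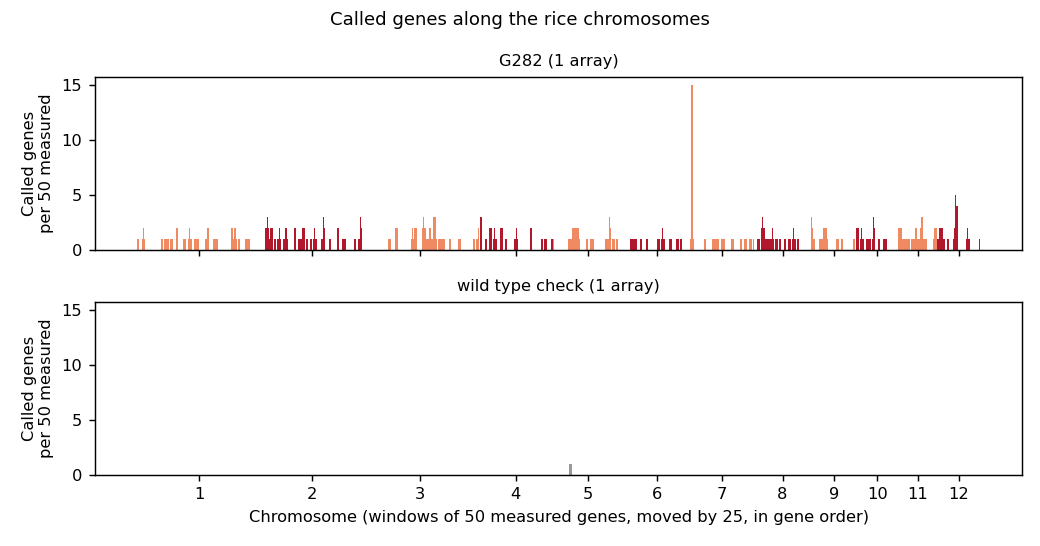
Called genes per window of 50 measured genes (vertical axis) along chromosomes 1 to 12 (horizontal axis, windows moved by 25 genes), in G282 (upper panel) and the wild type check (lower panel), 1 array each, with neighbouring chromosomes in different shades. The bar of 15 genes at the start of chromosome 7 covers the 14 genes of the run and 1 scattered gene, no other window of G282 exceeds 5, and the check shows 1 called gene on chromosome 5.

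The window with 5 genes lay on chromosome 12 and held LOC4351987, LOC4352028, LOC4352029, LOC4352048 and LOC4352063. LOC4352028 encodes GWD3 (PWD), phosphoglucan, water dikinase, which acts in the breakdown of leaf starch, and had 0.545 in G282 and 0 in the wild type check. It was not called after subtraction of the array median. It is adjacent to LOC4352029 among the measured genes.

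Of the scattered genes, 196 stood alone, meaning that more than 5 uncalled measured genes separated them from any other called gene. A further 12 pairs and 1 group of 3 were closer together. The group of 3 consisted of LOC4334979 at 0.636 in G282 and 0.182 in the wild type check, LOC4334989 at 0.727 in G282 and 0.0909 in the check, and LOC4334994 at 0.545 in G282 and 0.182 in the check. In 4 of the pairs no uncalled measured gene lay between the partners. They were LOC4330137 with LOC4330140, LOC4335520 with LOC4335526, LOC4335936 with LOC4335937, and LOC4352028 with LOC4352029.

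By chromosome, scattered genes made up 0.786% of the measured genes on chromosome 6, which was the lowest value (11 of 1400), and 2.48% on chromosome 11, which was the highest (21 of 846). Chromosome 2 held the most, with 34. After subtraction of the array median chromosome 9 kept 0 of its 12, and chromosome 2 kept 13 of its 34. Chromosome 7 itself held 13 scattered genes. The nearest before the run was LOC4342219, with 0.727 in G282 and 0 in the wild type check, separated from it by 15 measured genes. The nearest after it was LOC4342290, with 0.545 in G282 and 0 in the check, 10 measured genes away. The other 11 were at least 270 measured genes from the run.

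The scattered genes with the highest shares were on several chromosomes. LOC4328285 had 0.909 in G282 and 0.182 in the wild type check. At 0.818 in G282 were LOC4333552 and LOC4339433, both at 0 in the check, and LOC4337198 and LOC4345721, both at 0.182 in the check. LOC4333552 and LOC4339433 had the largest difference of the scattered genes, 0.818. Most of these genes with the highest shares were also called in another line. LOC4328285 reached 0.818 in d1 and in G650, LOC4339433 0.727 and LOC4337198 0.636 in d1, and LOC4345721 0.909 in G6989. LOC4333552 was not called in another line and reached 0.455 at most, in G6989. A further 17 scattered genes were at 0.727 in G282. The first of them in gene order were LOC4326620, LOC4327673, OsPP2C16 (LOC107276004), LOC4334989, LOC4335520, RR1 (LOC4335937), LOC4336352, LOC4336831, LOC4340221 and LOC4342219. A difference of 0.727 was found for LOC4328285, RR1, LOC4336352, LOC4336831, LOC4342219, LOC4351284 and LOC4351459.

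RR1 is a response regulator of the cytokinin pathway, in which such proteins carry or dampen the hormone signal. It had 0.727 in G282 and 0 in the wild type check, and 0.364 at most in the other lines. IAA8 (LOC4330571), of the Aux/IAA family of auxin response repressors, was measured by a pair of sets at 0.727 and 0.636 in G282, which gave 0.682 for the gene, against 0 in the check. OsPP2C16 had 0.727 in G282 and 0.0909 in the check, and reached 0.545 in G6603 and in G6989. LOC4334989 had 0 in each of the other 15 lines. These genes stayed called after subtraction of the array median.

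Other scattered genes that carry a name in the gene tables were picked out after their values were seen. Among genes of DNA and protein upkeep, MCM4, a subunit of the helicase that opens DNA for replication, and CLPC1, a chaperone of the Clp protease of plastids, each had 0.545 in G282 and 0.0909 in the wild type check. TOP3B, a DNA topoisomerase, and PDF1B, a peptide deformylase that trims new organelle proteins, each had 0.545 in G282 and 0.182 in the check. STE24 (FACE1), a protease of prenylated proteins, had 0.636 in G282 and 0 in the check. HDH, histidinol dehydrogenase of histidine synthesis, had 0.636 in G282 and 0.0909 in the check. Of these 6 genes, STE24 and HDH stayed called after subtraction of the array median.

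PHR1, a regulator of the response to phosphate starvation, and GRF8, a growth-regulating factor, each had 0.545 in G282 and 0 in the wild type check. BZR3, of the family of brassinosteroid response factors, had 0.545 in G282 and 0.0909 in the check. RGB1, the beta subunit of the heterotrimeric G protein, had 0.545 in G282 and 0.182 in the check. None of these 4 genes stayed called after subtraction of the array median. The alpha subunit gene RGA1 was not called, with 0.273 in G282 and 0 in the check, nor was CYP71P1, a cytochrome P450 gene, with 0.0455 in G282 and 0.136 in the check.

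The calls were also counted over 21 families recognised by the start of their gene names, chosen with earlier results of these data known. They held 417 measured genes, of which 5 (1.2%) were called in G282, beside 1.32% of all nuclear genes, and 0 in the wild type check. These were OsPP2C61 of the run and OsPP2C16 among 55 protein phosphatases 2C, IAA8 among 26 Aux/IAA genes, RR1 among 16 response regulators and the basic helix-loop-helix gene LOC4343984, with 0.545 in G282 and 0 in the check, among 12. The families together were thus called at about the rate of the array.

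Of the 223 scattered genes, 192 rested on 1 probe set. Of the 31 with several sets, 6 had every set called in G282. The range between the sets of such a gene had a median of 0.273 and was at most 0.636. If the highest set had been used for each gene in place of the median, 444 genes would have been called, 207 more than by the median.

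Values of the scattered genes on the other arrays were not all low. Their median was 0.409 in G6989, against 0.182 for the 17666 nuclear genes called in neither class. It was 0.273 in G6603, against 0.0909 for those other genes, and 0.182 in G7534, against 0.0455. In D256, D1137, D2943, G650, G6489 and F1856 the median was 0 for the scattered and for the other genes. On the wild type check array it was 0.0909 in both. For the single gene, the highest share in any other line was 0 to 0.909 with a median of 0.455.

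Set side by side, the mean share of the scattered genes exceeded that of the other genes by 0.444 in G282, where the call chose them. The excess was 0.195 in G6989, 0.169 in G6603, 0.123 in G7534, 0.113 in F2045 and 0.00743 in the wild type check, and D1137 had -0.0051. The run genes, in turn, had a mean share of 0.864 in G282, 0.244 in G6989, 0.14 in G6603 and 0.0779 in the check. Because the wild type reference is common to all arrays, no agreement between lines was tested.

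**Figure D4:**
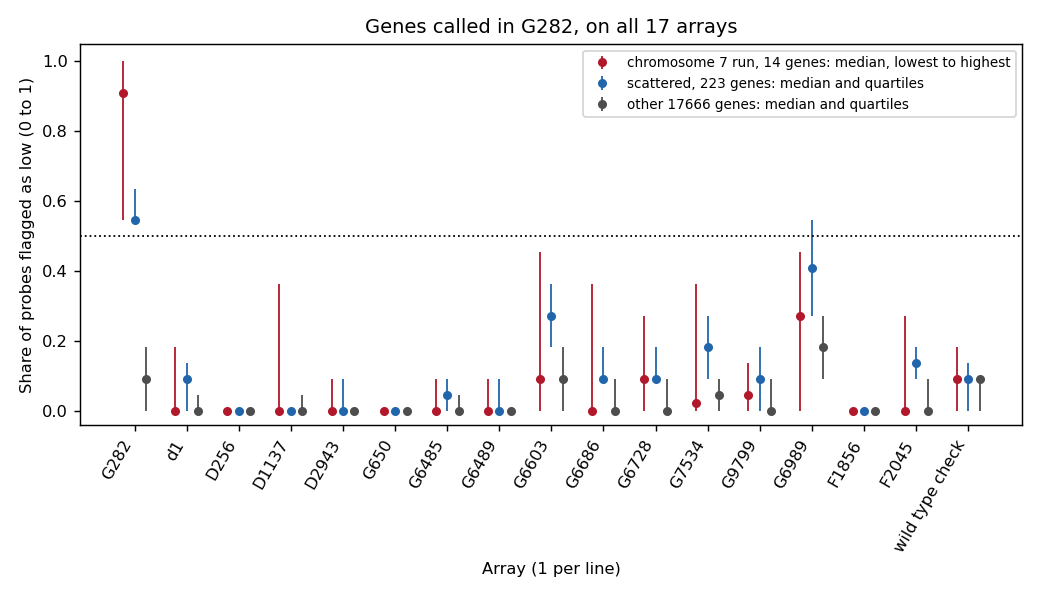
Share of probes flagged as low (vertical axis, 0 to 1) on each of the 17 arrays (horizontal axis, G282 at the left and the wild type check at the right) for the 14 run genes (red, median with lowest and highest gene), the 223 scattered genes (blue, median with quartiles) and the 17666 other nuclear genes (grey, median with quartiles). Run genes are high in G282 alone, with a median of 0.909, whereas scattered genes have medians of 0.545 in G282, 0.409 in G6989 and 0.273 in G6603.

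Many calls had no place on a chromosome. Of the 990 probe sets called in G282, 526 (53.1%) were paired with no gene, as were 60.6% of the sets on the array. Sets named OsAffx supplied 33.6% of the calls and 44.6% of the array. Among the 118 sets at 0.8 or more the order was turned, with 55.9% OsAffx sets and 70.3% sets with no gene. The mean share of the OsAffx sets was 0.0717 in G282 and 0.0642 in the wild type check. In the other large class, with names that begin with Os., it was 0.137 in G282 and 0.0828 in the check.

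All probes were flagged in 19 sets of G282, against a range of 0 to 0.364 in the wild type check for the same sets. Of these, 13 were OsAffx sets. Low signal was not limited to G282 for all of the 19. Some were also called in another line and reached up to 0.909, in d1 or in F2045. Others had 0.0909 at most in any other line. Only 3 of the 19 were paired with exactly 1 gene, and all 3 belonged to the run, to LOC4342247, LOC9267609 and LOC4342265. The remaining 16 could not be assigned to the run, to another deletion or to an organelle here. Among the organelle genes, the mitochondrial gene cob had 0.727 in G282 and 0 in the wild type check, and the plastid gene atpI had 0.364 in G282 and 0.0909 in the check.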

How the data were processed

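Genomic DNA of 16 mutant lines and of the wild type check was hybridized to 1 array each. The deposited value is a fraction, the share of perfect match probes of a set that the authors flagged as low. The authors averaged scans, scaled log2 signals to those of wild type with no background correction and took a log2 ratio for each probe, after reading the data with affy (version not given in the submitters' processing notes). The cutoff for flagging a probe is not stated beside the values. By the labels every array has the wild type check as reference, its own array too, yet 11 sets were called there. The paper reports wild type replicates, which it compared with each other to estimate false positives, and scaling to a wild type mean. More than 1 wild type hybridization was therefore made, but the check is the only wild type array in the series. Which wild type signal served as the reference of the check is not stated beside the values. A shift of a whole array to lower signal relative to the reference could raise many of its shares, and calls were therefore also made after subtraction of the array median. This median was 0.0909 in both G282 and the check, although the means were 0.108 and 0.0745. Its subtraction therefore acts as a higher threshold and cannot remove a shift between these arrays. Signal over background is unknown, because raw signals were not analysed here, and 1 array per line limits the precision.

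Sets were paired with genes by the platform annotation and RefSeq (ASM3414082v1, for names and order only), with 22436 sets paired with 1 gene, 95 with several and 34663 with none. In 57008 sets all values were multiples of 1 in 11 within 0.02 probes. Genes took the median over their sets. Called genes were joined across at most 5 uncalled measured genes, and windows of 50 genes were moved by 25. Values were computed in Python 3.11.15 (numpy 2.4.6, pandas 2.3.3, scipy 1.17.1, matplotlib 3.10.9), and the run finder was tested on simulated data. The simulated background was drawn at the median gene share of G282. Scattered calls are rarer in it than on the real array, so the effect of such calls on a run was not tested. With 1 array per group no test was made. Intervals are exact Clopper-Pearson at 95% and cover counting error only.

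The line, the run and all lists were chosen with earlier results of these data known. Most named genes follow a rule: every called gene of the run and 3 measured genes on each side, the 15 scattered genes with the highest share, the 10 with the largest difference (ties in gene order), groups of 3 or more and adjacent pairs, genes called in the check, called family members, and cob, atpI, RGA1 and CYP71P1. Outside it, and chosen after their values were seen, are MCM4, CLPC1, TOP3B, PDF1B, STE24, HDH, PHR1, GRF8, BZR3, RGB1, LOC4342290 and, in the fullest other window, LOC4351987, LOC4352048 and LOC4352063. Alternatives were thresholds of 0.4 and 0.6, subtraction of the array median, the array mean or the check, gaps of 0, 2 and 10 genes, the highest or the mean set per gene, and sets left out.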

Additional observations from a re-analysis of the deposited data

How the results depend on the processing

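The chromosome 7 run held 13 to 15 genes and its median share in G282 was 0.909 under every alternative tried for it, whereas counts of called sets and of scattered genes changed. Medians were taken on the deposited scale also after subtraction, so that the run median could move mainly through the genes in the run. Of 70 alternatives, 42 left a count within 1.5 times or a median as it was, and 28 moved it. The 42 include all alternatives for the run median, so their number is not a measure of robustness. With a threshold of 0.4 there were 2178 called probe sets in G282 and 90 in the wild type check, and G282 had 701 called genes, 687 of them scattered with a median of 0.455. With 0.6 the sets were 460 in G282 and 0 in the check, and G282 had 74 genes, 61 of them scattered with a median of 0.636. After subtraction of the array median the sets were 460 in G282 and 0 in the check, with 80 genes in G282, 67 of them scattered with a median of 0.636, and OsAffx sets made up 40.4% of the calls in place of 33.6%. After subtraction of the array mean the sets were 457 in G282 and 0 in the check, with 74 genes in G282, 61 of them scattered with a median of 0.636. After subtraction of the share in the check 544 sets and 120 genes were called in G282, 107 of them scattered with a median of 0.591 on the deposited scale. The highest set per gene gave 444 genes in G282, 430 of them scattered. Without sets ending in _s_at or _x_at (9969 sets) the check had 6 called sets. Higher thresholds and subtraction call fewer genes by construction. The cause of the scattered calls was not tested.

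No paired analysis was possible because G282 and the check are single arrays. No share has a replicate, and in most sets it moves in steps of 1 probe in 11.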
